A study of Mus musculus with 6 samples.

Results

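The genes described here are the axon guidance ligands and receptors of the mouse: ephrins and Eph receptors, semaphorins with their plexin and neuropilin receptors, netrins with Unc5 receptors, and Slits with Robo receptors. They were taken by gene name, as all non-control probes whose name belongs to one of these families, which gave 70 genes on 101 probes of 35527 gene names and 55681 probes on the array. The list itself was chosen with earlier results of these data known. The cells were 3T3, an established line of mouse embryonic fibroblasts, which had received either GapmeR Ntep or GapmeR control, each at 50 nM, 48 h before harvest. GapmeRs are short antisense oligonucleotides whose pairing with an RNA recruits RNase H to cut it; the target here was Ntep, a long noncoding RNA, and the control group thus received an oligonucleotide too. RNA was measured on 6 Agilent arrays in 1 colour, 3 for each label, from 3 independent experiments with 1 array of each label per experiment. All of the data come from this 1 cell line.

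Axon guidance genes encode cues that attract or repel growing axons, and the receptors that read them at the growth cone. Ephrins are bound to the cell membrane and signal on contact to Eph receptor tyrosine kinases, whereas class 3 semaphorins, netrins and Slits are secreted. Class 3 semaphorins bind neuropilins, which lack a signalling domain of their own and pass the signal on through plexins, and the receptors act mainly on small GTPases and the actin cytoskeleton. Fibroblasts use the same families in cell contact repulsion, adhesion and migration.

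Signals are given after quantile normalization of the arrays, on a linear scale with values under 20 set to 20. They have no absolute unit and were not compared between probes. Differences are log2 values, the arrays labelled GapmeR Ntep (Ntep arrays) minus those labelled GapmeR control (control arrays), and all p-values are two-sided, from limma with Benjamini-Hochberg adjustment over 30990 tested probes. A gene is represented by its brightest probe, and it was tested if the mean signal was at least 50 in the brighter group. The targeted RNA, named A630089N07Rik in the files, had signals of 472, 91.5 and 226 on the Ntep arrays of experiments 1, 2 and 3 and of 271, 272 and 361 on the control arrays (limma adjusted p = 0.632). In experiment 1 this probe was higher on the Ntep array and thus went against the label there, and every direction below is that of the label. Between 43.7% and 53.3% of probes were well above background per array, no probe was saturated, and all 6 arrays were on 1 slide.

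The summed signal of 10 fibroblast markers was lower on the Ntep arrays, at 455024 to 598855 against 673298 to 745809, and 8 of 9 tested ones had a lower mean there. Of the matrix proteoglycans among them, Lum was well above background on 1 array only, and Dcn on all control arrays but on 1 of 3 Ntep arrays. Of 10 neuron markers 8 were on the array by name, and Gap43 and Stmn2, which define growing neurons, were at 20 on all 6 arrays. Their sum, carried by Snap25 (a vesicle fusion protein), was 19169 to 44648 on the Ntep arrays and 9431 to 13252 on the control arrays. Of the 4 tested neuron markers, Snap25, Syp and Tubb3 were higher without overlap, by 1.46, 0.65 and 0.62 on the log2 scale. The 8 endothelial markers summed to 1128 to 1425 and to 841 to 1147, with Tek, Tie1 and Emcn at 20 throughout and Cdh5 at no more than 22.1. Of the 4 tested, Esam, Kdr and Pecam1 were higher without overlap, by 2.75, 0.41 and 0.38, and Vwf differed by -1.08 with overlap and by -1.66 without overlap on a dimmer probe. The 7 macrophage markers matched of 8 summed to 42436 to 75215 and to 19904 to 27373, while Ptprc, which all leukocytes carry, was well above background on no array. Of the 5 tested, Cd68 rose by 1.21 (limma adjusted p = 0.0287), Itgam and Cd14 were higher by 1.26 and 1.11 without overlap, Csf1r was higher by 3.19 with overlap, and Lyz2 differed by -0.18. A dimmer tested probe of Csf1r was higher by only 0.44, also with overlap. Itgam had the largest part in the macrophage sum, and a dimmer tested probe of Itgam differed by -0.03 with overlap, so its probes disagree. These sums moved with the labels, and their part in the results below was not tested. In RNA of whole cultures, fewer cells of a type and less RNA per cell cannot be told apart.

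Of the 70 genes, 46 were tested and 24 were too dim. Among the 46, the ephrins tended upwards and the receptors downwards: 7 of 8 ephrins had a higher mean on the Ntep arrays, whereas 18 of 21 receptors had a lower one. After adjustment, the ephrins Efna1 and Efnb3 rose, and the semaphorins Sema3c and Sema3f and the neuropilin Nrp1 fell. At a fold change of at least 2 with an unadjusted p under 0.01, the semaphorin Sema6b rose as well, and the plexin Plxna2 and the repellent Slit1 fell. The median log2 difference of the 46 genes was -0.34, and -0.46, -0.30 and -0.56 within experiments 1, 2 and 3, beside 0.06 over all 22078 gene names tested. The 25 tested ligands had a median of 0.24, and the 21 tested receptors had one of -0.57. Within experiments 1, 2 and 3 the ligand median was 0.37, 0.08 and -0.10 and the receptor median -0.97, -0.35 and -0.65.

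By the adjusted p, 2 of 46 members were higher (4.35%) and 3 lower (6.52%), where 1.99% and 3.18% of all tested gene names were called. By the fold and unadjusted p limits, 3 members were higher (6.52%) and 5 lower (10.9%), against 2.89% and 5% of all names. The groups did not overlap for 6 higher members (13%) and 16 lower ones (34.8%), against 17.1% and 15.4% of all names. The share of separated members was thus above that of all names downwards but not upwards, and neither difference in share was tested. With experiments as blocks, 11 members passed after adjustment, 4 of them higher and 7 lower, against 6.5% and 7.41% of all names; those added were Efna2, Sema6b, Plxna2, Plxna3, Plxnc1 and Slit1.

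The adjusted calls did not all hold when 1 array was left out. Such a fit also has fewer arrays from which to estimate the spread, and the part of each was not tested. Without GapmeR Ntep replicate 3, or without GapmeR control replicate 1, 2 or 3, limma called no member after adjustment. It then called 0, 106, 0 and 5 of all gene names. In the same fits 15, 25, 15 and 15 members had an unadjusted p under 0.05. The share of all gene names under that unadjusted limit was not determined. These counts thus do not set the members apart from all names. Without GapmeR Ntep replicate 1, limma called 2 members after adjustment, and 5 in place of 8 passed the fold and unadjusted p limits. Of the 8 genes past a limit and 12 further ones with separated groups that are given with their values below, none changed direction under any alternative that gave a value. Nrp1 and Slit1 had no value where only probes above background on every array were kept.

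**Figure D1:**
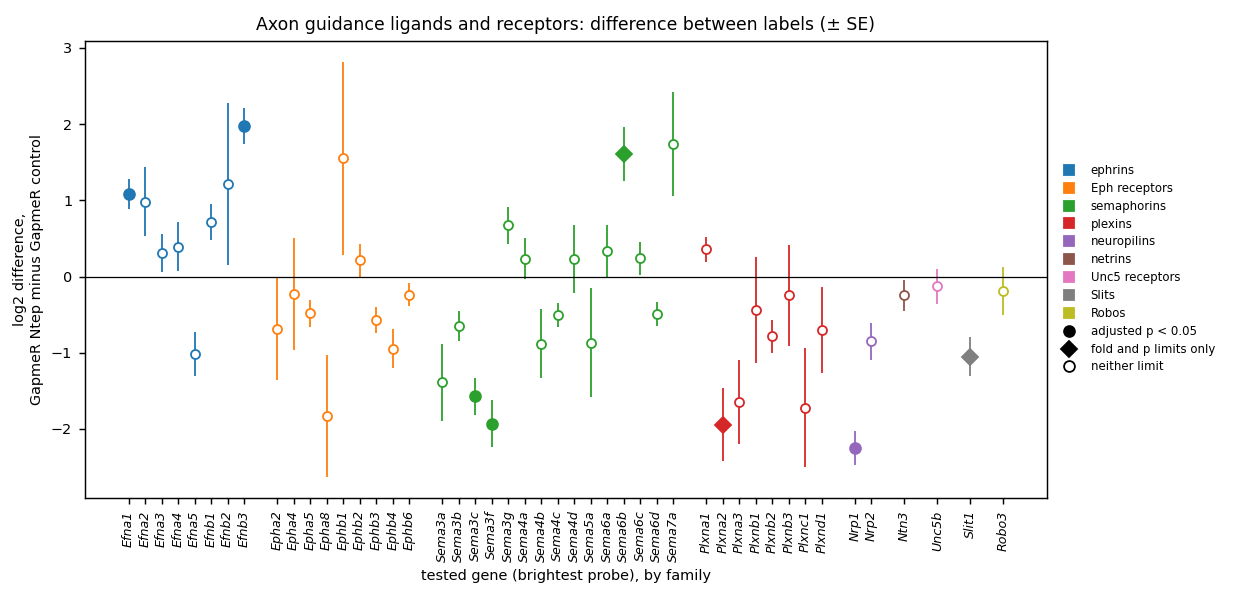
Log2 difference between labels (y axis, Ntep minus control arrays, n = 3 each) for each of the 46 tested genes (x axis, colours mark families), with bars of 1 SE from limma. The ephrins lie above 0 except Efna5, the plexins lie below 0 except Plxna1, and both neuropilins lie below 0.

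All 8 ephrins on the array were tested, and 7 of them were higher on the Ntep arrays, with a median of 0.85 and medians of 0.85, 0.80 and 0.89 within the 3 experiments. Efna1, a ligand anchored to the membrane by a lipid that binds EphA receptors, had signals of 44896, 35592 and 34917 on the Ntep arrays and of 21170, 16361 and 16982 on the control arrays. Every Ntep array was above every control array, and the difference was nearly the same in each experiment, at 1.08, 1.12 and 1.04. Efna1 rose 2.12-fold (log2 1.08, SE 0.20, limma adjusted p = 0.0394). Its probe lies on the minus strand of chromosome 3 (bases 89075703 to 89075762, mm9). Leaving out any 1 array took its adjusted p to between 0.0600 and 0.169, and 75th percentile scaling took it to 0.0590. Without GapmeR Ntep replicate 1 the log2 difference was 0.97, under the fold limit.

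Efnb3, a transmembrane ligand of EphB receptors, rose most among the ephrins. Its signals were 818, 912 and 890 on the Ntep arrays against 236, 283 and 164 on the control arrays. The groups were far apart, and the Ntep arrays differed little among themselves. The rise was 3.93-fold (log2 1.97, SE 0.24, limma adjusted p = 0.0243), by a probe on the minus strand of chromosome 11 (bases 69367911 to 69367970, mm9). Without 1 array its adjusted p was 0.0429 to 0.113, and the highest value was that without GapmeR control replicate 2.

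Among ephrins that passed neither limit, Efnb1, a further transmembrane ligand, had signals of 1708, 1104 and 1691 against 771, 961 and 970. Its groups did not overlap, and the difference was 0.72 (SE 0.24, limma adjusted p = 0.135). Efna5, a repellent EphA ligand, was the one ephrin with a lower mean. It had signals of 1296, 2549 and 2320 on the Ntep arrays and of 3771, 3955 and 4245 on the control arrays, again without overlap (log2 -1.02, SE 0.29, limma adjusted p = 0.0972). Efna2 overlapped between groups but was higher in each experiment, by 1.03, 0.93 and 0.99, and passed with experiments as blocks (limma adjusted p = 0.0337, against 0.243 without). It was well above background on 1 of 3 control arrays. Efnb2, which also overlapped, was higher by 0.66, 1.23 and 1.74 in experiments 1, 2 and 3 and passed the fold and unadjusted p limits only with experiments as blocks (limma adjusted p = 0.0544). The experiments themselves differed for Efnb2, whose control signal was 2623 in experiment 1 and 318 and 286 in the others. Efna3 and Efna4 differed by 0.31 and 0.39, with overlap.

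**Figure D2:**
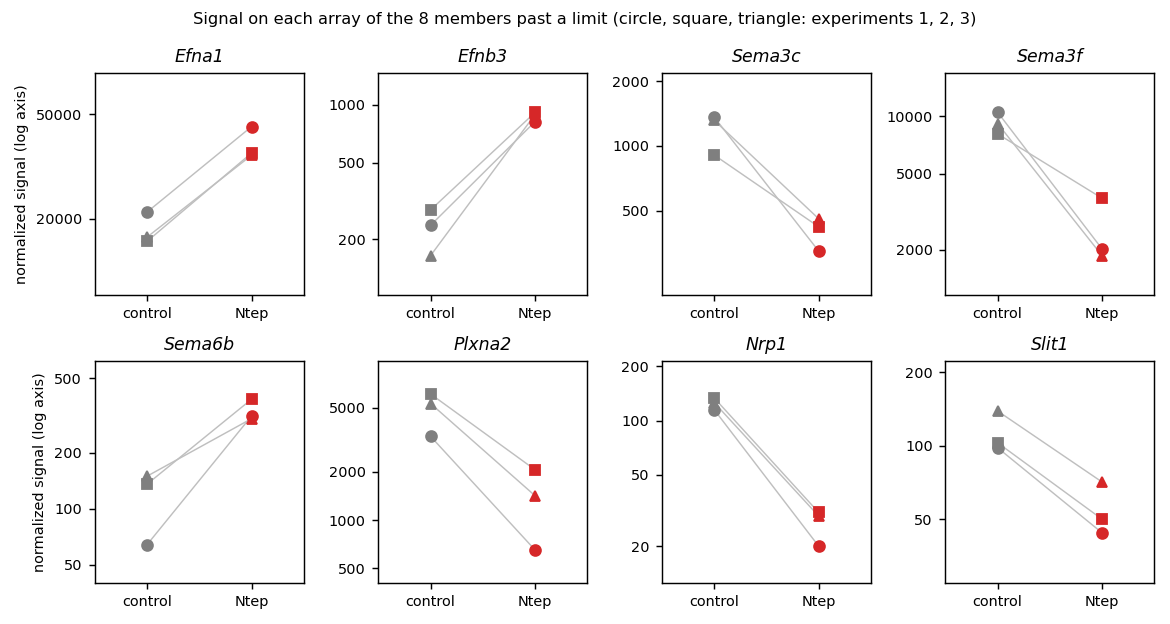
Normalized signal (y axis, log scale, its range set for each gene) on each control array (grey) and Ntep array (red) for the 8 genes past a limit, with a line joining the arrays of 1 experiment. In all 8 genes the red points do not overlap the grey ones, and all 3 lines run the same way.

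Of 14 Eph receptors, which are receptor tyrosine kinases read out by contact with ephrins, 9 were tested, and 7 of them had a lower mean on the Ntep arrays. None passed either limit (limma), and 4 lower ones did not overlap between groups. The family median was -0.48, with -0.54, -0.31 and -0.50 within experiments. Ephb4, the receptor of ephrin-B2 in blood vessels, had signals of 4558, 7510 and 4801 on the Ntep arrays and of 12358, 9624 and 9878 on the control arrays. The groups were apart (log2 -0.95, SE 0.25, limma adjusted p = 0.0849), and a dimmer probe of Ephb4 differed by -0.52 with overlap. Without GapmeR Ntep replicate 2 the brighter probe reached an adjusted p of 0.04999.

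Ephb3, an EphB receptor with a role in gut cell sorting, had signals of 16586, 20769 and 17514 on the Ntep arrays and of 24861, 28489 and 27810 on the control arrays. Its groups did not overlap (log2 -0.57, SE 0.17, limma adjusted p = 0.111). Epha5, a receptor of ephrin-A ligands in retinal axons, had 6482, 7995 and 6181 against 8918, 10062 and 9705, also without overlap (log2 -0.48, SE 0.18, limma adjusted p = 0.163). The dimmer Epha5 probes were well above background on no array, and whether the bright probe reads Epha5 was not tested. Ephb6, which lacks kinase activity, was the fourth receptor without overlap and differed by -0.24. Epha2, Epha4 and Epha8 were lower on average with overlap, and Ephb2 was higher by 0.21 with overlap. Ephb1, singled out after its values were seen, had a signal of 505 on GapmeR Ntep replicate 1 and of 20 on each of the other 5 arrays, so its mean difference of 1.55 rests on that 1 array. The untested Eph receptors were Epha1, Epha3, Epha6, Epha7 and Epha10.

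Of 20 semaphorins, 15 were tested, 7 with a higher and 8 with a lower mean on the Ntep arrays, and the classes differed in their medians. The 5 tested class 3 genes, which are secreted, had a median of -1.39, and 4 of them were lower. The 4 tested class 4 genes had a median of -0.14, and the 4 tested class 6 genes, which are transmembrane, had one of 0.29. The class medians were not tested against each other.

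Sema3c, a secreted ligand of both neuropilins that guides neural crest cells, had signals of 324, 420 and 458 on the Ntep arrays and of 1364, 908 and 1318 on the control arrays. The groups were clearly apart, and Sema3c fell by 1.57 on the log2 scale (SE 0.24, limma adjusted p = 0.0312). A second, dimmer probe of Sema3c was well above background on all control arrays (97.2, 253 and 94.3) and on no Ntep array. It was at least 2.56-fold lower there (limma adjusted p = 0.0430). Such a bound sets the mean log2 signal of the brighter group against the lowest signal that counted as well above background on each array of the dimmer group. The brighter probe lies on the plus strand of chromosome 5 (bases 17235981 to 17236040, mm9), and without 1 array its adjusted p was 0.0524 to 0.127.

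Sema3f, a secreted repellent that acts through neuropilin-2, fell further. Its signals were 2018, 3718 and 1862 on the Ntep arrays and 10462, 8068 and 9136 on the control arrays. The fall was 3.81-fold (log2 -1.93, SE 0.31, limma adjusted p = 0.0326), smallest in experiment 2 at -1.12 and -2.37 and -2.29 in the others. Its probe lies on the minus strand of chromosome 9 (bases 107583833 to 107583892, mm9). Without 1 array the adjusted p ran from 0.0384 to 0.136, the highest without GapmeR control replicate 2.

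Sema6b, a transmembrane semaphorin that binds A-type plexins, moved the other way. It had signals of 314, 386 and 304 on the Ntep arrays and of 64.0, 135 and 149 on the control arrays. Every Ntep array was above every control array, and Sema6b rose 3.05-fold by the fold and unadjusted p limits (log2 1.61, SE 0.36, limma adjusted p = 0.0576, with experiments as blocks 0.0444). Its probe is on the minus strand of chromosome 17 (bases 56262769 to 56262828, mm9). GapmeR control replicate 1 had the lowest control signal, and the difference was 1.23 without it. Sema6b missed the fold and unadjusted p limits without GapmeR Ntep replicate 1, 2 or 3, with all probes tested, with the methods' t-test and with normexp background correction, where the log2 difference was 0.96.

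Among the other semaphorins, Sema3g, a secreted ligand of neuropilin-2 in vessels, had 412, 395 and 466 on the Ntep arrays against 201, 268 and 347, without overlap (log2 0.68, SE 0.24, limma adjusted p = 0.156). Sema3b, a secreted semaphorin known as a candidate tumour suppressor, had 8977, 12873 and 10753 against 16076, 16243 and 18461 (log2 -0.65, SE 0.20, limma adjusted p = 0.109). Sema4c, a transmembrane ligand of plexin-B2, had 16876, 19709 and 18059 against 24576, 26472 and 26489 (log2 -0.51, SE 0.16, limma adjusted p = 0.116). In each of these 3 genes the groups did not overlap although neither limit was passed. The same held for Sema6d, at -0.49. Sema3a, the classic collapsing factor of growth cones, differed by -1.39 with overlap in its signals. Sema7a, which carries a lipid anchor, was higher by 1.74 with overlap, and Sema5a rested on 1 control array at 122 with the other 5 arrays at 20. A dimmer Sema6c probe differed by -0.76 and the brighter one by 0.24, both with overlap. Sema3d, Sema3e, Sema4f, Sema4g and Sema5b were too dim to be tested.

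Neuropilins bind class 3 semaphorins and also VEGF, and both were lower on the Ntep arrays. Nrp1 was well above background on all control arrays, at 115, 134 and 126, and on none of the Ntep arrays, at 20, 30.8 and 29.4. It was at least 2.41-fold lower on the Ntep arrays (limma adjusted p = 0.0185, measured log2 difference -2.25, SE 0.22). The difference was -2.52, -2.12 and -2.10 in experiments 1, 2 and 3. It was -1.32 with a floor of 50 and -0.71 with normexp background correction, a fall smaller than that bound and under the fold limit. The probe lies on the plus strand of chromosome 8 (bases 131026650 to 131026709, mm9), and without 1 array its adjusted p was 0.0290 to 0.120, the highest without GapmeR control replicate 2. Nrp2, the neuropilin preferred by Sema3f, had signals of 9354, 15181 and 14625 on the Ntep arrays and of 25016, 22612 and 21602 on the control arrays. Its groups did not overlap (log2 -0.85, SE 0.24, limma adjusted p = 0.0929), but a dimmer probe of Nrp2 differed by 0.11 with overlap, so the probes of this gene disagree.

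Plexins are the signalling receptors of semaphorins and carry a GTPase-activating domain. Of 9 plexin genes 8 were tested, and 7 had a lower mean on the Ntep arrays. The median was -0.74, and -1.05, -0.51 and -1.04 within experiments. Plxna2, which receives class 3 and class 6 semaphorins, had signals of 652, 2057 and 1418 on the Ntep arrays and of 3323, 6101 and 5320 on the control arrays. The groups did not overlap, and within each group experiment 1 was lowest. Plxna2 fell 3.84-fold by the fold and unadjusted p limits (log2 -1.94, SE 0.47, limma adjusted p = 0.0702, with experiments as blocks 0.0310). It missed these limits without GapmeR Ntep replicate 3, without GapmeR control replicate 2 or 3, with all probes tested and with the methods' t-test. Its probe is on the plus strand of chromosome 1 (bases 196642958 to 196643017, mm9).

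Plxna3, the A-type plexin that pairs with Nrp2 for Sema3f, had signals of 175, 705 and 480 on the Ntep arrays and of 873, 1559 and 1337 on the control arrays. Experiment 1 was again the lowest in both groups, which were apart (log2 -1.65, SE 0.55, limma adjusted p = 0.134, with experiments as blocks 0.0412). Plxnb2, the B-type receptor of Sema4c, had 26052, 40923 and 35925 against 56601, 58823 and 58849, without overlap (log2 -0.78, SE 0.21, limma adjusted p = 0.0886). Plxnc1, the receptor of Sema7a, overlapped between groups but differed by -1.71, -1.32 and -2.13 in experiments 1, 2 and 3, and passed with experiments as blocks (limma adjusted p = 0.0324) and with array weights (log2 -2.11, limma adjusted p = 0.0169). It was well above background on 1 of 3 Ntep arrays. Plxna1 was the exception, with 298, 259 and 272 on the Ntep arrays and 236, 211 and 201 on the control arrays, apart by a small margin (log2 0.36, SE 0.16, limma adjusted p = 0.240). Plxnb1, Plxnb3 and Plxnd1 were lower on average with overlap, and Plxna4 was too dim.

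Class 3 semaphorins and neuropilin meet at the cell surface, and the promoter windows of Sema3c and Nrp1, a ligand and a receptor that fell on the same arrays, are shown to give the sequence around their starts. The windows are those of RefSeq on GRCm38.p6 and run from 250 bases before to 50 bases after a start, 5′ to 3′, and 61 of the 70 genes had at least 1 window. Capitals mark the GC box, searched as GGGCGG on both strands.
Sema3c promoter, chr5:17574566-17574865, plus strand: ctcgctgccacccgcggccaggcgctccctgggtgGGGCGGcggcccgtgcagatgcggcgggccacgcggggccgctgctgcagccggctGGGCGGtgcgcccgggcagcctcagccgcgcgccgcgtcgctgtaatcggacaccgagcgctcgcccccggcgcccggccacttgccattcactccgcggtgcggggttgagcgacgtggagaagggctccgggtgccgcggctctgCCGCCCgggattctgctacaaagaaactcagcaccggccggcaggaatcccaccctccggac
Nrp1 promoter, chr8:128358823-128359122, plus strand: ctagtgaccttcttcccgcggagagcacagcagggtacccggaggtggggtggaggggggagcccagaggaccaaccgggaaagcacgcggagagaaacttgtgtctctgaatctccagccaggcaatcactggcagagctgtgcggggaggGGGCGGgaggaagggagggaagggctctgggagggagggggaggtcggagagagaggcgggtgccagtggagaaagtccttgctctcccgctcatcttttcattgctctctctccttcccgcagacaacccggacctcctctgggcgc
The Sema3c window held 3 GC boxes and the Nrp1 window 1. Among 77 windows of axon guidance genes 70.1% held a GC box, against 35.7% of all 32851 windows, which include those of noncoding genes. The TATA box (TATAAA on both strands) was in 2.6% and 13.6%, the CRE core (TGACG on both strands) in 13.0% and 20.8%, the E-box (CACGTG) in 6.5% and 7.2%, and the AP-1 motif (TGANTCA) in 3.9% and 7.8%. These matches describe the letters of the windows, and some windows of 1 gene overlap.

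**Figure D3:**
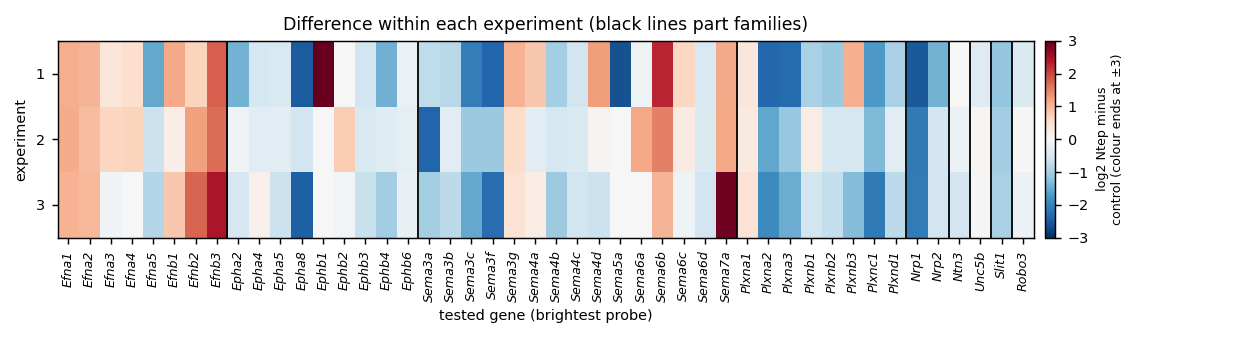
Log2 difference between the Ntep and the control array of each experiment (rows) for the 46 tested genes (columns, black lines part families), in red where the Ntep array was higher and in blue where it was lower, with the colour scale ending at 3 in either direction. Efna1, Efna2 and Efnb3 are red in all 3 rows, Plxna2, Plxna3, Plxnc1 and Nrp1 are blue in all 3, and Ephb1 and Sema5a stand out in experiment 1 alone.

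Netrins and Slits, with their receptors, were mostly near background. Of 6 netrins Ntn3 alone was tested and differed by -0.25, and Ntn1, the founding netrin, was at 20 on 5 of 6 arrays. Of 4 Unc5 receptors Unc5b, a netrin receptor that mediates repulsion, was tested, with 10378, 9196 and 8688 on the Ntep arrays and 13628, 8796 and 8969 on the control arrays. These groups overlapped (log2 -0.12, SE 0.23, limma adjusted p = 0.761). Slit1, a secreted repellent read by Robo receptors, had signals of 43.9, 50.0 and 71.0 on the Ntep arrays and of 98.1, 103 and 139 on the control arrays. It was well above background on all control arrays and on 1 of 3 Ntep arrays, and fell by the fold and unadjusted p limits (log2 -1.05, SE 0.26, limma adjusted p = 0.0695, with experiments as blocks 0.0337). It missed these limits without any 1 array other than GapmeR Ntep replicate 3, with all probes tested, with an intensity trend and with the methods' t-test. It also missed them with 75th percentile scaling, normexp, a floor of 50 and array weights, where the log2 difference was -0.80, -0.42, -0.99 and -0.88. Its probe is on the minus strand of chromosome 19 (bases 41674749 to 41674808, mm9). Of 4 Robos Robo3 was tested, and its probes disagreed, with -0.19 for the brighter one and 1.11 for a dimmer one. Ntn4, Ntn5, Ntng1, Ntng2, Unc5a, Unc5c, Unc5d, Slit2, Slit3, Robo1, Robo2 and Robo4 were too dim to be tested.

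Genes that act beside or below these receptors were taken from a list of 97 partners and signalling genes, of which 96 were on the array and 84 were tested. After adjustment none rose and 6 fell (limma), and by the fold and unadjusted p limits none rose and 10 fell, against 1.99% and 3.18% and against 2.89% and 5% of all gene names. With experiments as blocks 9 fell, Pak4, Kalrn and Cdon being added, and 1 rose, Crmp1, against 7.41% and 6.5%. A dimmer probe of Cdon was higher by 0.43 with overlap, so the probes of Cdon disagree. The median of the 84 genes was -0.30. With a median of -0.97, the 11 tested partners of Slits and Robos stood lowest of the 5 groups, while the 23 partners of semaphorins, plexins and neuropilins had -0.18. Among the Slit and Robo partners, Srgap2, Srgap3 and Flrt2 were lower on the brightest probe, but dimmer tested probes differed by 0.20, 0.57 and 0.13. Flrt1 was higher by 2.12 on its brightest probe, and dimmer ones differed by -1.99 and -1.29. These probes disagree, which limits the median of that group. The 19 tested ephrin and Eph partners had a median of -0.35, the 6 tested netrin, DCC and RGM partners had -0.80, and the 25 cytoskeletal effectors had -0.21. The netrin group counts Dcc at -0.70, by a bright probe placed on chromosome 7. The dimmer Dcc probes lie on chromosome 18 and were well above background on no array. Whether the bright probe reads Dcc was not tested, which limits the median of that group.

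Vav3, an exchange factor recruited by Eph receptors, fell from 3596 ± 319 to 717 ± 246 (mean ± SD, n = 3 arrays each; log2 -2.39, SE 0.31, limma adjusted p = 0.0250). Pak3, a kinase that acts downstream of Rac and Cdc42, fell from 22198 ± 2834 to 6055 ± 2136 (log2 -1.92, limma adjusted p = 0.0299). Dock1, a Rac exchange factor, fell from 15133 ± 1189 to 4825 ± 1436 (log2 -1.69, limma adjusted p = 0.0288). All 3 act on the actin cytoskeleton. Srgap3, a GTPase-activating protein of the Slit and Robo pathway, fell by 1.18 on its brightest probe, but a dimmer one was higher by 0.57 without overlap, so the probes of this gene disagree. Usp33, a deubiquitinase that binds Robo1, fell by 1.09, and Arhgef11, an exchange factor bound by B-type plexins, fell by 1.16 (in this order, limma adjusted p = 0.0461, 0.0361 and 0.0367). By the fold and unadjusted p limits alone, Ptpn13 (a tyrosine phosphatase), Flrt2 (a cell surface adhesion protein), Pik3r1 (a regulatory subunit of PI3 kinase) and Myo9b (an unconventional myosin) fell by 1.26, 1.16, 1.07 and 1.01. A dimmer probe of Flrt2 differed by 0.13 with overlap, so its probes disagree too. A dimmer probe of Gsk3b, a kinase in semaphorin signalling, was higher by 1.08 (limma adjusted p = 0.0326) while its brightest probe differed by -0.48, so the probes of that gene disagree.

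**Figure D4:**
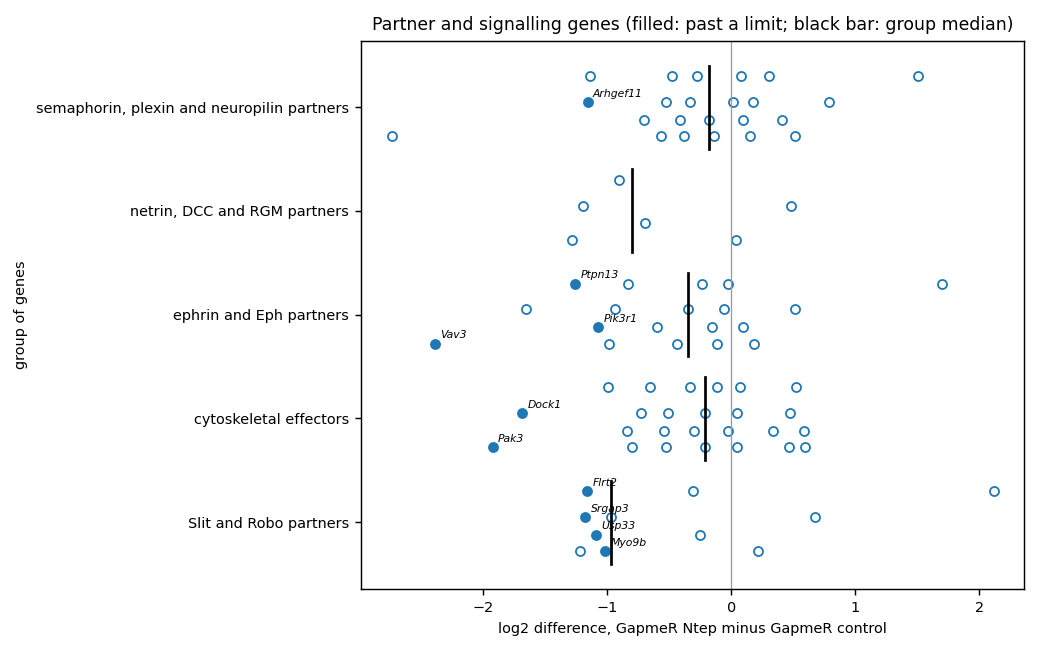
Log2 difference between labels (x axis, Ntep minus control arrays) for the 84 tested partner and signalling genes in their 5 groups (y axis, height within a group has no meaning), filled where a gene passed a limit, with a black bar at each group median. All 10 filled points lie below -1, and the medians of all 5 groups lie below 0.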

How the data were processed

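Total RNA of the 3T3 cultures was hybridised to Agilent mouse arrays. Agilent Feature Extraction 10.7.3.1 turned the scans into signals, and the authors deposited each array's intensity values, which are linear and background subtracted but not normalized across the series. A table of quantile normalized intensity values was deposited as well, in which no value is under 20. The methods and the supplementary file name different formats of the array. Coordinates of probes follow mm9, as the file headers state, and the part of the gene that a probe covers was not analysed here.

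Groups came from the sample labels. Spots of a probe were averaged, the 6 arrays were brought to the same quantiles, low values were raised to 20, and limma 3.58.1 (R 4.3.3) was run on the log2 signals without pairing. It covered the 30990 probes whose brighter group averaged at least 50. The limits were an adjusted p under 0.05, or a fold change of at least 2 with an unadjusted p under 0.01. The steps were tested on simulated data. The number of arrays limits the precision, since an exact permutation test of 3 against 3 values gives no p under 0.1.

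The supplementary file pairs the arrays by experiment, and deviations from the group means correlated within the 3 pairs (0.466, 0.300 and 0.254) and from -0.327 to 0.126 across experiments. For this reason experiments also entered limma as blocks, in a second fit.

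Named in full are the members that pass a limit with any probe, and per family up to 3 with the largest difference among those whose groups do not overlap. Partner genes past a limit are named, at most 12. Single further genes were named after their values were seen. The members, lists and tests were chosen with earlier results of these data known. Alternatives were other scaling, background correction, floors, filters, outlier spots, limma settings, the methods' t-test, the deposited table, blocks, the choice of probe and the omission of each array.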

Additional observations from a re-analysis of the deposited data

How the results depend on the processing

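The 20 alternatives changed the direction of none of the 8 genes past a limit and the 12 others followed, except that Nrp1 and Slit1 had no value where only probes above background on every array were kept. Of the counts after adjustment (5 members as reported), testing all probes gave 1 and the methods' t-test 1, an intensity trend gave 8, experiments as blocks (the replicate block) 11 and array weights 27, with 33.6% of all gene names called under the weights. Without 1 array the count was 0 to 4. Of the counts at the fold and unadjusted p limits (8 as reported), normexp, testing all probes and the methods' t-test gave 5 each and array weights 13, and without 1 array 5 to 9. Apart from that 1 share under the weights, no share of all gene names stands beside these counts here. They thus do not part a change in the members from one in calling as a whole. Scaling to the 75th percentile moved the median of all gene names from 0.06 to 0.22 and that of the members to -0.20, and normexp and testing all probes took the latter to -0.089 and -0.17. Both of these settings covered all 35527 gene names, so their medians include the members otherwise too dim to be tested. Normexp also added an offset of 50 to each signal, here and for the single genes above. Ephrins had a median of 0.97 with 75th percentile scaling, 0.52 with normexp, 0.72 over probes that were well above background on every array and 0.91 with array weights. Eph receptors had -0.33, -0.11 and -0.20 with the scaling, with normexp and over all probes. The semaphorin median was -0.49 in the main fit. It was -0.055 with the scaling, -0.10 with normexp, and -0.14 and -0.13 with floors of 50 and 5. Over all probes it was -0.34, and with array weights -0.32. Neuropilins had -1.55 in the main fit, -0.79 with normexp and -1.09 with a floor of 50. Among probes well above background, where Nrp2 alone remained, the value was -0.85. Without 1 array the medians ran from -0.48 to -0.24 for all members, 0.60 to 1.03 for ephrins, -0.63 to -0.21 for Eph receptors, -0.49 to -0.14 for semaphorins, -1.05 to -0.38 for plexins (the last without GapmeR Ntep replicate 1) and -1.67 to -1.34 for neuropilins. The block changed no call of an axon guidance gene other than those given with its value above. The causes were not tested. Nrp1, Slit1, Plxnc1 and the dimmer Sema3c probe lie near background on Ntep arrays and Efna2 on control arrays, which limits their fold changes.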
